A study of Mus musculus with 12 samples.

Results

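The interaction between indole-3-propionic acid (IPA) and sciatic nerve crush was examined in the dorsal root ganglia of mice. It is the difference between 2 differences: IPA minus vehicle in ganglia of the crushed nerve, less IPA minus vehicle in ganglia of the intact nerve. A negative value means that the level with IPA, relative to vehicle, was lower after crush than without it. All 12 of the 12 libraries entered the contrast, and 15603 of the 44345 listed genes were tested, namely those with a value of at least 0.5 in 3 or more libraries. The question was which gene classes stood differently with IPA in injured and in intact ganglia.

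Ganglia L4 to L6 came from C57BL/6 mice of 6 to 8 weeks, and each library held the ganglia of 2 pooled mice. The vehicle group was gavaged daily with PBS for 10 days and its nerve was left intact. The IPA group received 20 mg/kg IPA in PBS on the same schedule, also with an intact nerve. The vehicle-crush and IPA-crush groups had the same gavage, then a crush of the sciatic nerve, and were sampled 3 days later, with IPA dosing continued in the IPA-crush group. Whether vehicle gavage also continued is not clear from the labels. Crushed mice dosed with IPA thus had 3 more days of IPA, so that injury and the length of dosing cannot be told apart. Each group had 3 libraries. Neither sex nor batch is in the labels.

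IPA is an indole that intestinal bacteria make from dietary tryptophan, and it is absorbed into the blood. Dorsal root ganglia hold the cell bodies of sensory neurons, wrapped by satellite glia and set among Schwann cells, vessels, resident macrophages and a fibroblast capsule that continues the meninges. After a peripheral axon is cut or crushed, its cell body starts a growth programme and macrophages increase in the ganglion.

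The libraries held 40938034 to 62501969 recovered reads. The labels were checked on genes known to respond to axon injury. Atf3, a stress-induced transcription factor, was at 10.54 to 12.38 in the 6 intact and 466 to 525 in the 6 crushed libraries, and the sensory neuron genes Prph, Avil, Isl1 and Pou4f1 were present in every library. Vehicle-crush replicate 1 stood apart. Its counts differed from those of the other 2 vehicle-crush libraries with a chi-square per degree of freedom of 30.8 and 28.6, against 6.22 between those 2. Its log2 values moved by -0.15 per 10 percentage points of transcript GC content, against 0.07 and 0.05. IPA-crush replicate 3 differed from its partners by 26.8 and 13.2, against 7.93 between those. Vehicle replicate 3 differed from its partners by 11.5 and 18.8, against 5.05. The slope on GC content varied in other groups too. It was -0.10, -0.15 and -0.005 in vehicle, 0.02, 0.07 and 0.005 in IPA, and 0.14, 0.09 and -0.03 in IPA-crush libraries. Levels are the deposited CPM-like values, meaning reads of a gene scaled to the library's total with no division by gene length. Differences are on the log2(value + 0.5) scale, with the standard error (SE) of the limma fit, and understate the change of low genes.

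No gene passed the test of the interaction at a Benjamini-Hochberg adjusted p under 0.05 (0%, limma). The smallest adjusted p was 0.639, for Mfap4, and the next was 0.9997. At an unadjusted p under 0.05 there were 327 genes (2.10%), of which 105 were higher (0.673%) and 222 lower (1.42%), where 780 would be reached if all p-values were uniform. With each library's trend on GC content and length removed, 266 were higher and 266 lower, so that the excess of lower genes was not there. On the recovered reads, edgeR's quasi-likelihood test also called 0 genes, with 130 higher and 214 lower at an unadjusted p under 0.05. DESeq2 called 3 genes, Mfap4, Fn1 and Adam8, at adjusted p of 0.0056, 0.0295 and 0.0153. Without vehicle-crush replicate 1 the limma count was still 0, but 917 genes were higher and 779 lower at an unadjusted p under 0.05, and the smallest adjusted p was 0.158. The precision sets a bound on what the 12 libraries could miss. The 95% interval of the interaction lay within 1.2-fold either way for 4817 genes (30.9%), within 1.5-fold for 13688 (87.7%) and within 2-fold for 15403 (98.7%).

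The 2 differences from vehicle share no library. Over the 15603 genes their Pearson correlation was 0.487 and their Spearman correlation 0.511, and 10942 genes (70.1%) had the same sign in both. The genes of a library share its depth and its trend on GC content, and genes are not independent replicates. Without vehicle-crush replicate 1 the Pearson correlation was 0.0594, and with each library's trend on GC content and length taken out it was 0.331. The interaction had a median of -0.01 over all genes, with 47.6% of genes above 0 and 52.4% below. The 39 gene lists below are read against these shares. The lists were chosen with earlier results of these data known, so a share above that of all genes is not independent evidence. They held 1110 distinct symbols, of which 1107 were matched to the table and 1017 passed the filter on low values.

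**Figure D1:**
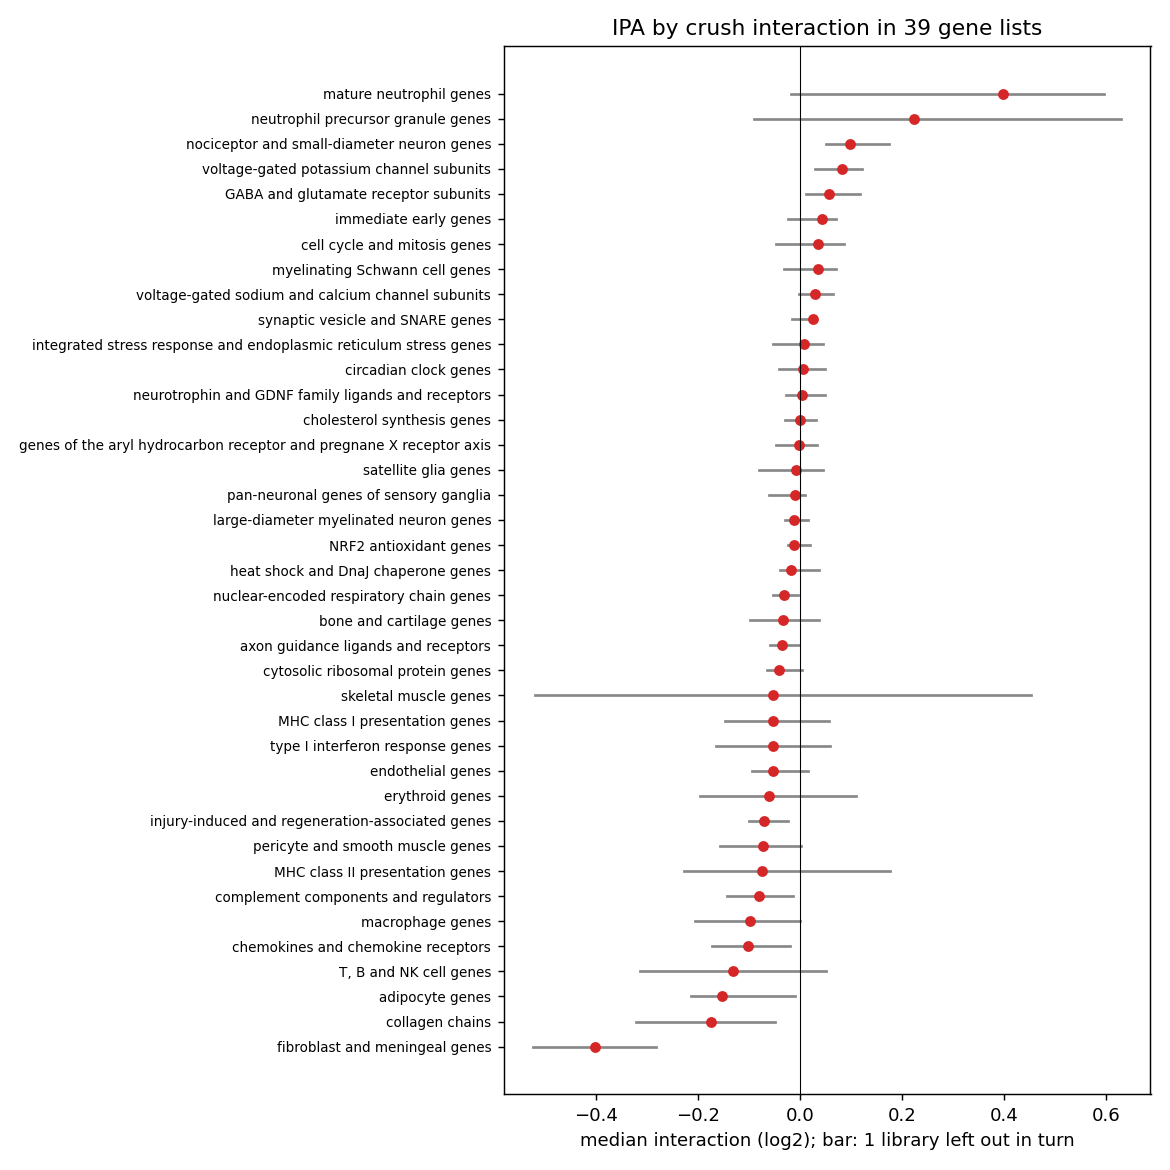
Median interaction (log2) of the tested members of each of 39 gene lists, with points for all 12 libraries and bars for the lowest and highest median with 1 library left out in turn. Fibroblast and meningeal genes lie lowest at -0.40 with a bar from -0.52 to -0.28. The bars of many lists reach across 0, and those of the neutrophil and skeletal muscle lists are the widest.

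Fibroblast and meningeal genes had the lowest median interaction of the 39 lists. Their members were mostly above vehicle with IPA in intact ganglia and below vehicle with IPA in crushed ganglia. All 26 passed the filter, 24 had an interaction below 0, and 9 were lower at an unadjusted p under 0.05, a share of 34.6% beside 1.42% of all tested genes. None was higher, and none passed the adjusted p. The median interaction was -0.40. The median difference from vehicle was 0.18 in intact and -0.14 in crushed ganglia, and 20 of the 26 were above 0 in the first and below 0 in the second, as were 16.8% of all tested genes. Taken singly, 22 were above 0 in intact ganglia (52.9% of all tested genes) and 24 below 0 in crushed ganglia (50.9%).

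The members of this list at the smallest p were Aldh1a2, Ranbp3l and Igf2. Aldh1a2, which makes retinoic acid and is active in the meninges (chr9:71215789-71296243), was at 3.45, 3.26 and 4.35 with vehicle and 4.62, 5.03 and 3.80 with IPA in intact ganglia. After crush it was at 4.26, 4.38 and 4.48 with vehicle and 2.95, 3.53 and 3.11 with IPA. The groups overlapped in intact ganglia and did not after crush, where every IPA library was lower. Its interaction was -0.65 ± 0.16 (SE, limma, unadjusted p = 0.0014). Ranbp3l (chr15:8967949-9067335) was at 0.694, 0.512 and 0.894 with vehicle and 0.867, 0.891 and 0.811 with IPA in intact ganglia. After crush it was at 1.53, 1.11 and 0.963 with vehicle and 0.443, 0.723 and 0.673 with IPA, again without overlap after crush only. Its interaction was -0.80 ± 0.21 (limma, unadjusted p = 0.0022).

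Igf2, a growth factor of the insulin family (chr7:142650766-142666816), was at 34.6, 39.3 and 59.0 with vehicle and 49.6, 61.4 and 40.8 with IPA in intact ganglia. After crush it was at 45.3, 54.1 and 54.9 with vehicle and 32.6, 36.1 and 32.5 with IPA. The intact groups overlapped, and every IPA library was below every vehicle library after crush. Its interaction was -0.80 ± 0.24 (limma, unadjusted p = 0.0048). The other 6 members lower at that p were Ptgds, which makes prostaglandin D2, at -0.83, the transporter Slc47a1 at -0.61, the collagen-binding proteoglycan Fmod at -0.56, the matrix protein Dpt at -0.48, Col3a1 at -0.45 and the calcification inhibitor Mgp at -0.44. Of the other members, the fibroblast receptor Pdgfra was at -0.11 and the proteoglycan Dcn at -0.05. Lum and Ogn, proteoglycans of the same family as Fmod, were the 2 members above 0, at 0.09 and 0.11.

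**Figure D2:**
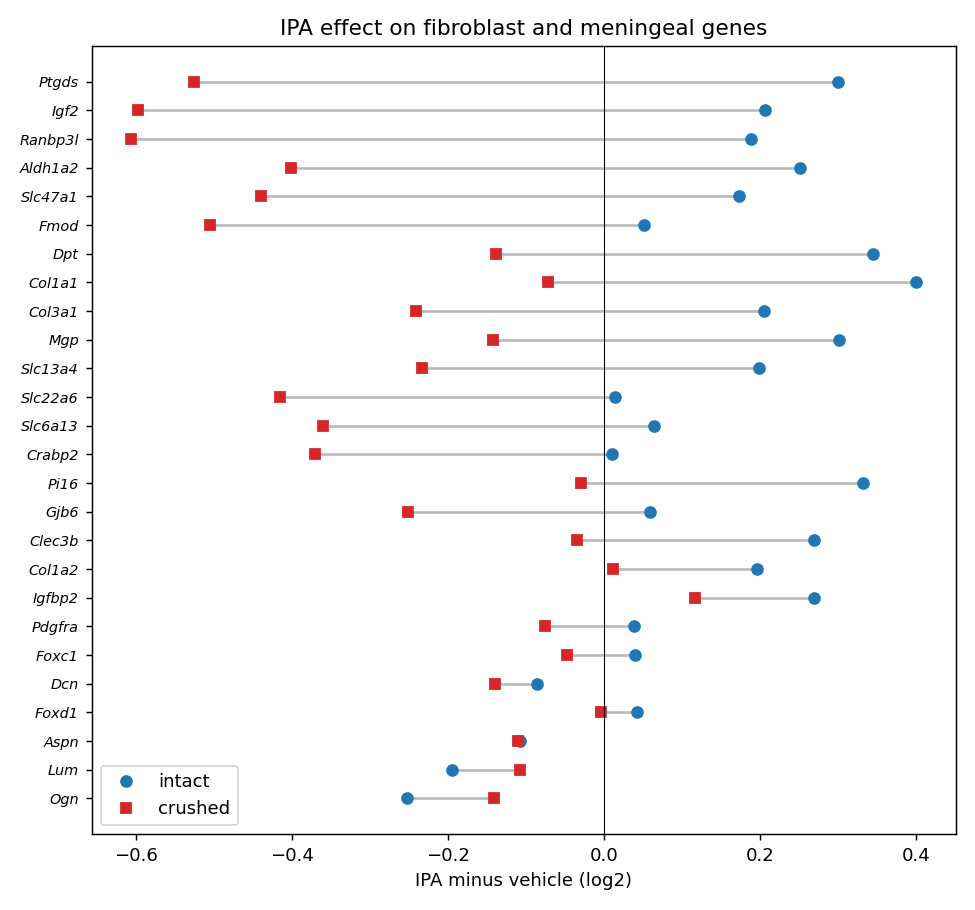
IPA minus vehicle (log2) for each of the 26 fibroblast and meningeal genes in intact (circles) and crushed (squares) ganglia, ordered by their difference, the interaction. Circles lie right of 0 for 22 genes and squares left of 0 for 24.

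In each library the list was summarised as its mean log2 level. It was 3.46, 3.43 and 3.70 in vehicle, 3.70, 3.82 and 3.45 in IPA, 3.68, 3.82 and 3.83 in vehicle-crush and 3.43, 3.62 and 3.61 in IPA-crush libraries. Vehicle replicate 3 was as high as the IPA libraries and IPA replicate 3 as low as the vehicle libraries, so that the intact groups overlapped, while the crushed groups did not. The median interaction stayed between -0.52 and -0.28 with any 1 library left out. The count of members lower at an unadjusted p under 0.05 moved more: it was 5 without vehicle replicate 2, 14 without vehicle replicate 3 and 15 without IPA replicate 3. In these bulk samples, fewer cells of a type and less RNA per cell cannot be told apart, and how much capsule or meninges was dissected with each ganglion is not given in the labels.

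**Figure D3:**
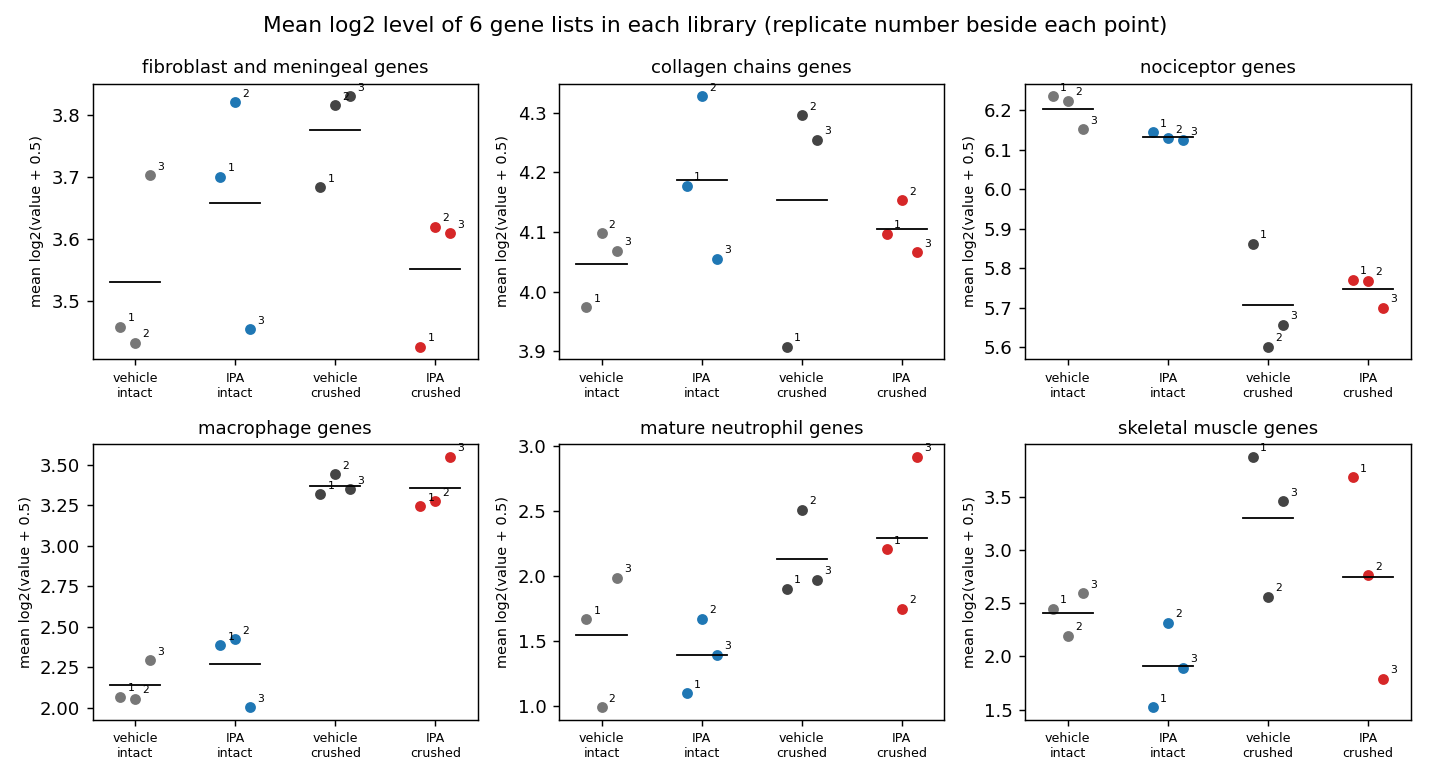
Mean log2(value + 0.5) of 6 gene lists in each of the 12 libraries, with the replicate number beside each point and a line at the group mean. Fibroblast and meningeal genes are separated after crush (3.68 to 3.83 with vehicle, 3.43 to 3.62 with IPA), and the mature neutrophil and skeletal muscle lists spread widely within groups.

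Promoters are shown for the 2 fibroblast members of smallest p, as the start regions of genes that lay together in this list. The sequences are the 250 bases before the start on the plus strand, from RefSeq on GRCm38.p6, at chr9:71215539-71215788 for Aldh1a2 and chr15:8967699-8967948 for Ranbp3l. Capitals mark a CCAAT box.
Aldh1a2: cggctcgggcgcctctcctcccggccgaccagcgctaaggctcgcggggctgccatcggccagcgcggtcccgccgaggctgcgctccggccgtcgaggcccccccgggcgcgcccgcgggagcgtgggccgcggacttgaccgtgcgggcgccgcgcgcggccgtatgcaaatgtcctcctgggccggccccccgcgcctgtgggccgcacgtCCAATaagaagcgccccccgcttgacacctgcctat
Ranbp3l: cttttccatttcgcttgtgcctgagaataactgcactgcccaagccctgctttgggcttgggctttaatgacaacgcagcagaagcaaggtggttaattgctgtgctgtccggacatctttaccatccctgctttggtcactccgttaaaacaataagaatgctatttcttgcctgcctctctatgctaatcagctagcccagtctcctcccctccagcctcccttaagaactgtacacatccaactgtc
Both strands of each such window were searched for the AP-1 letters TGANTCA, the TATA box letters TATAAA and the CCAAT letters, none of which contains another. The box of Aldh1a2 starts 36 bases before the gene, and Ranbp3l had no match. Of 25 promoters of 19 fibroblast genes, 2 held the AP-1 letters (8.0%), 3 the TATA letters (12%) and 10 the CCAAT letters (40.0%). Of 14114 promoters of 10991 tested genes the shares were 4.7%, 6.9% and 34.6%.

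Collagens, the chains of the main fibrous and sheet proteins of matrix, had 31 of 32 chains tested and 25 below 0. Of these, 7 were lower at an unadjusted p under 0.05 (22.6%, beside 1.42% of all genes) and none was higher. Their median interaction was -0.18, with 0.14 in intact and -0.04 in crushed ganglia. Col12a1, a fibril-associated chain (chr9:79598991-79718831), was at 20.7, 25.4 and 23.8 with vehicle and 25.9, 28.2 and 19.9 with IPA in intact ganglia. After crush it was at 26.1, 30.4 and 28.7 with vehicle and 20.9, 20.3 and 20.8 with IPA, which did not overlap. Its interaction was -0.52 ± 0.15 (limma, unadjusted p = 0.0049). Col3a1, of fibrillar collagen, was at -0.45 ± 0.14, and Col6a2, of the beaded filament collagen, at -0.45 ± 0.15. The basement membrane chains Col4a1 and Col4a2 were at -0.11 and -0.10, and Col25a1 was highest at 0.22. In mean log2 level the collagen list was at 3.908, 4.296 and 4.255 in vehicle-crush and 4.097, 4.153 and 4.066 in IPA-crush libraries. These groups overlapped, with vehicle-crush replicate 1 below every IPA-crush library, and the intact groups overlapped too. The collagen median was -0.32 without vehicle-crush replicate 1 and -0.05 without vehicle-crush replicate 2. The count at unadjusted p was 17 without the first and 4 without the second. That count was also 4 without vehicle replicate 1, IPA replicate 2 or IPA-crush replicate 1. Col1a1, Col1a2 and Col3a1 stand in both lists, which together held 54 tested genes, 46 of them below 0, with 15 lower and 0 higher at that p, beside 1.42% and 0.673% of all genes.

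Among genes with a mean of at least 1, the 8 below 0 of smallest p were Mfap4, Fn1, Adam8, AK163121, Aldh1a2, Prg4, Chad and Slc22a8. Mfap4, a protein of elastic microfibrils (chr11:61485431-61488900), was at 1.18, 1.35 and 1.65 with vehicle and 2.19, 2.49 and 1.99 with IPA in intact ganglia. In crushed ganglia the levels were 1.45, 2.16 and 1.45 with vehicle and 0.874, 1.02 and 0.782 with IPA. Every IPA library was above every vehicle library in intact ganglia and below every one after crush. The interaction was -1.17 ± 0.20 (limma, adjusted p = 0.639), and the adjusted p ran from 0.0056 with DESeq2 to 1.000 over the other settings and left-out libraries, array weights aside.

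Fn1, which codes for fibronectin (chr1:71585520-71653200), was at 26.1, 29.7 and 32.0 with vehicle and 34.1, 41.6 and 28.2 with IPA in intact ganglia. After injury the values were 45.1, 44.2 and 50.5 with vehicle and 33.0, 32.9 and 31.8 with IPA, so that only the crushed groups were separated. Its interaction was -0.73 ± 0.16 (limma, adjusted p = 0.9997). Prg4, the joint lubricant lubricin, had the lowest interaction of all tested genes, -1.44 ± 0.36. It was at 1.04 to 2.91 with vehicle and 2.69 to 5.22 with IPA in intact ganglia, which overlapped, and at 3.74 to 5.37 with vehicle and 2.58 to 2.66 with IPA after crush. Chad, a cartilage matrix protein, was at -0.74 ± 0.19, and its groups did not overlap in intact ganglia and did after crush. Slc22a8, an organic anion transporter, was at -0.67 ± 0.18.

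Adam8, a membrane metalloprotease of immune cells and injured neurons (chr7:139978932-139992562), showed another form. It was at 5.45, 6.16 and 4.14 with vehicle and 8.16, 9.33 and 8.48 with IPA in intact ganglia. After the crush, levels were 75.6, 96.0 and 92.2 with vehicle and 80.3, 78.3 and 87.8 with IPA. The groups were separated without injury and overlapped after it. The interaction was -0.78 ± 0.17 (limma, adjusted p = 0.9997), made up of 0.69 in intact and -0.09 in crushed ganglia. AK163121, a transcript listed by a UCSC identifier, was at -0.29 ± 0.07.

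**Figure D4:**
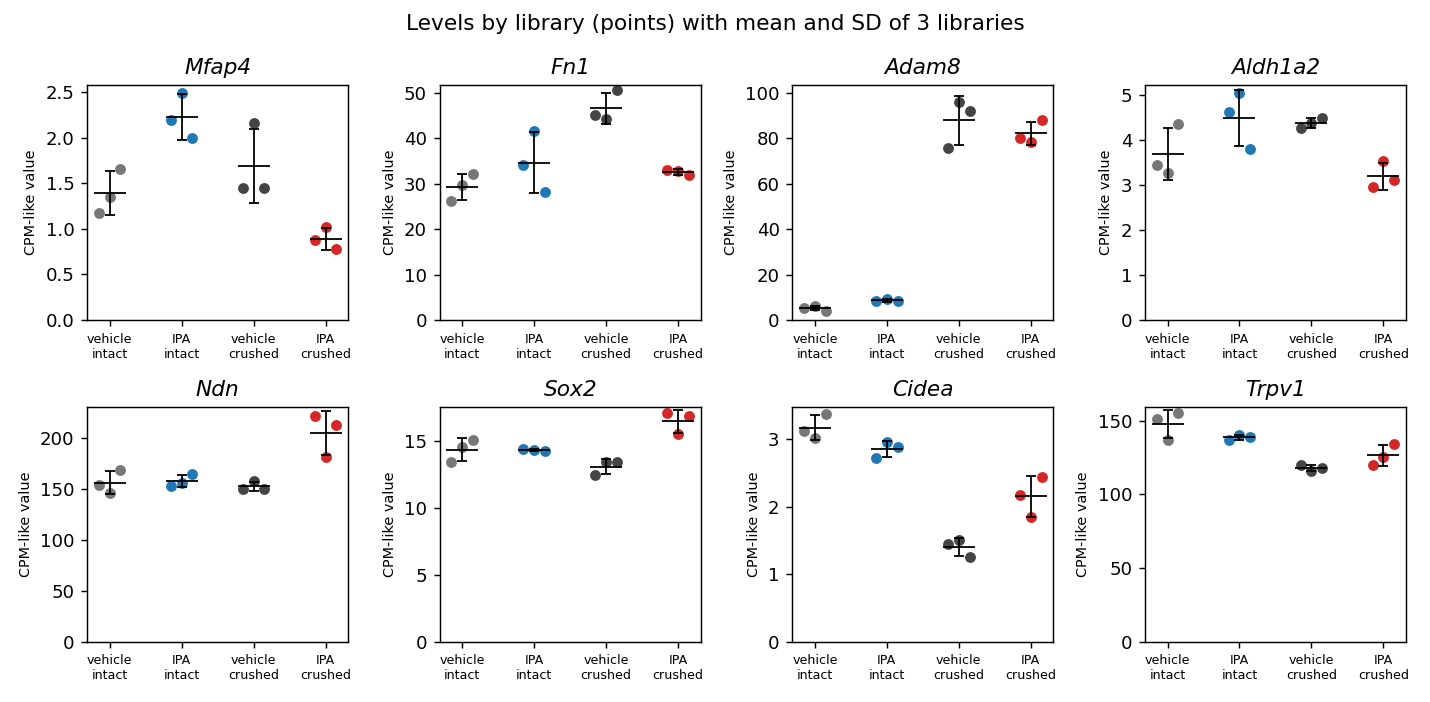
CPM-like value of 8 genes in each library (points) with the mean and SD of 3 libraries per group, on axes that start at 0. Mfap4, Fn1 and Aldh1a2 are lower with IPA after crush, Ndn, Sox2 and Cidea are higher with IPA after crush, and Adam8 is separated by IPA only in intact ganglia.

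Among genes with a mean of at least 1, those above 0 of smallest p were of mixed kinds. Ndn, the growth-suppressing protein necdin of neurons (chr7:62346569-62350262), was at 154, 146 and 169 with vehicle and 153, 156 and 165 with IPA in intact ganglia. In the crushed groups it stood at 150, 158 and 151 with vehicle and 223, 181 and 213 with IPA. The intact groups overlapped and the crushed groups did not, with an interaction of 0.40 ± 0.10 (limma, adjusted p = 0.9997). Sox2, a transcription factor of satellite glia (chr3:34650405-34652461), was at 13.4 to 15.1 with vehicle and 14.2 to 14.4 with IPA in intact ganglia. In crushed ganglia the levels were 12.5 to 13.4 with vehicle and 15.5 to 17.1 with IPA, and its interaction was 0.32 ± 0.09. Cidea, a lipid droplet protein, was at 3.015 to 3.376 with vehicle and 2.73 to 2.96 with IPA in intact ganglia, and at 1.26 to 1.51 and 1.84 to 2.44 after crush, without overlap in either state. The interaction of Cidea was 0.60 ± 0.14. Others were Lrguk at 0.56, AI467606 at 0.53, Gm17641 at 0.44 and the small GTPase Arl4d at 0.31.

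Genes whose 3 IPA libraries lay wholly on one side of the vehicle libraries in intact ganglia and wholly on the other side after crush numbered 27 (0.173%). Of these, 16 were higher with IPA in intact and lower in crushed ganglia (0.103%), and 11 the reverse (0.0705%). Without vehicle-crush replicate 1 the 2 counts were 166 and 162, and without any 1 of the other 11 libraries they were 25 to 69 and 15 to 34. The balance of 16 to 11 depended on the scaling: it was 11 to 17 with median-of-ratios scaling, 11 to 14 with TMM and 23 to 28 with the trend on GC content and length removed. No list's mean level crossed in this way.

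**Figure D5:**
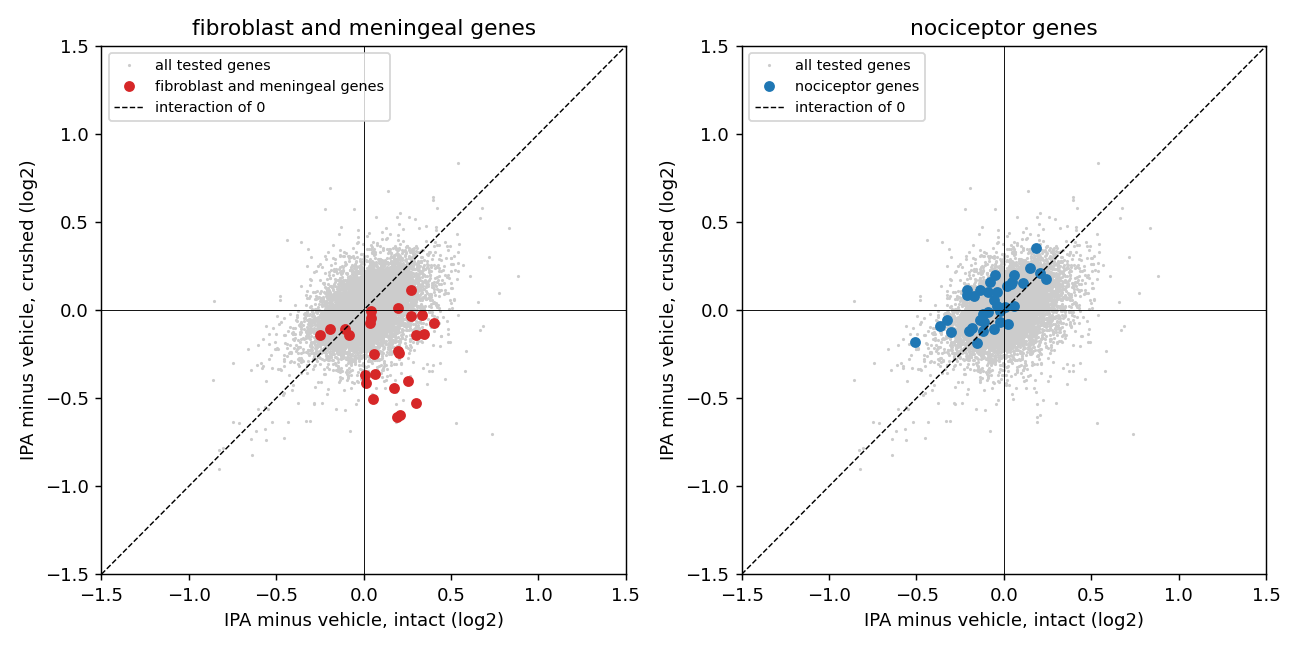
IPA minus vehicle (log2) in intact (x axis) against crushed ganglia (y axis) for all tested genes (grey), with fibroblast and meningeal genes in red and nociceptor genes in blue. Genes on the dashed line have an interaction of 0, 24 of 26 fibroblast genes lie below it and 31 of 37 nociceptor genes above it, and Capn11 lies beyond the axes.

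Nociceptor and small-diameter neuron genes lay the other way, by smaller amounts. All 37 were tested, 31 had an interaction above 0 and 2 were higher at an unadjusted p under 0.05 (5.4%, beside 0.673% of all genes), with none lower. Their median was 0.10, with -0.06 in intact and 0.03 in crushed ganglia. Trpv1, the capsaicin and heat receptor (chr11:73234292-73261242), was at 151, 137 and 155 with vehicle and 137, 140 and 139 with IPA in intact ganglia. After injury the values were 120, 116 and 118 with vehicle and 120, 125 and 134 with IPA. The interaction was 0.19 ± 0.08 (limma, unadjusted p = 0.0253). Htr3a, a serotonin-gated channel, was at 0.25 ± 0.11. The neuropeptide genes Tac1, Calca and Calcb were at 0.25, 0.11 and 0.14, the irritant receptor Trpa1 at 0.30, and the sodium channel Scn10a at 0.08, while Sst and Runx1 were at -0.10 and -0.07.

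The nociceptor levels moved with vehicle-crush replicate 1. In mean log2 level the list was at 5.86 in that library and at 5.60 and 5.66 in the other 2 vehicle-crush libraries, with 5.70 to 5.77 in IPA-crush libraries. The median interaction was 0.18 without replicate 1 and 0.05 without replicate 2 of that group. The same library was high for other neuronal channel lists: potassium channels were at 4.97 in it and at 4.76 and 4.82 in its partners, beside 4.76 to 4.86 with IPA-crush. The part of that library in the result was not otherwise tested.

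Among voltage-gated potassium channel subunits 23 of 36 were above 0, with a median of 0.08, and 2 were higher at an unadjusted p under 0.05 (5.6%, beside 0.673% of all genes). That median was 0.12 without vehicle-crush replicate 1 and 0.03 without vehicle-crush replicate 2 or without IPA-crush replicate 2. Kcnv1, a silent subunit that modifies other channels, was at 41.8, 41.2 and 42.2 with vehicle and 37.4, 38.2 and 38.1 with IPA in intact ganglia, without overlap, and at 22.5 to 26.3 and 23.98 to 26.67 after crush, with overlap. Its interaction was 0.23 ± 0.09, and that of Kcnc4 was 0.13 ± 0.06. GABA and glutamate receptor subunits had 22 of 30 above 0 with a median of 0.06, and none at that p. Sodium and calcium channel subunits had 20 of 29 above 0 and a median of 0.03, which was 0.06 without vehicle-crush replicate 1 and 0.00 without vehicle-crush replicate 2, and synaptic vesicle and SNARE genes 19 of 34 and 0.02. Scn10a and Syt11, abundant members of these lists, were at 0.08 and -0.02.

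Pan-neuronal genes had 10 of 20 above 0 and a median of -0.01, and large-diameter myelinated neuron genes 10 of 28 (35.7%) and -0.01. The injury-induced and regeneration-associated genes, the class that defines the neuronal response to crush, had 16 of 50 above 0 (32.0%, beside 47.6% of all genes) and a median of -0.07. Of these 50, 21 were above vehicle with IPA in intact ganglia and below it in crushed ganglia, beside 16.8% of all genes. The median was -0.02 without vehicle replicate 1. Of the 50, 1 was higher at an unadjusted p under 0.05 (2.0%, beside 0.673% of all genes) and none lower. It was the membrane protease Mmp16, at 0.28 ± 0.12. Atf3 was at -0.11 ± 0.08, the growth-associated Sprr1a at -0.30 ± 0.27, and the neuropeptides Gal and Npy at 0.06 ± 0.14 and -0.23 ± 0.25. Their 95% intervals all held 0, and ran from -0.28 to 0.05 for Atf3, -0.88 to 0.29 for Sprr1a, -0.24 to 0.36 for Gal and -0.76 to 0.31 for Npy. Neurotrophin and GDNF family genes had 9 of 15 above 0 and a median of 0.00. Axon guidance genes had 16 of 44 above 0 (36.4%) and a median of -0.04, with the ligand Ntn1 at -0.44 and the receptor Epha4 at -0.27 among the lower and the netrin receptor Unc5b at 0.21.

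Glial lists had medians near 0. Satellite glia genes had 9 of 22 above 0 and a median of -0.01. Of them, 1 was lower at an unadjusted p under 0.05 (4.5%, beside 1.42% of all genes) and none higher. It was Dbi, the acyl-CoA binding protein, at -0.19 ± 0.08. Myelinating Schwann cell genes had 13 of 22 above 0 and a median of 0.04, which was -0.03 without vehicle-crush replicate 1 and -0.02 without vehicle replicate 3 or IPA-crush replicate 3. Egr2, the master transcription factor of myelination and also an immediate early gene, was at 10.8, 10.6 and 15.6 with vehicle and 14.6, 18.6 and 17.2 with IPA in intact ganglia. After the crush, levels were 14.4, 22.8 and 16.0 with vehicle and 18.1, 15.8 and 13.4 with IPA. The groups overlapped in both states, and the interaction was -0.59 ± 0.24. Immediate early genes had 15 of 26 above 0 and a median of 0.04, and Nr4a3 was at 0.43 ± 0.18.

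Immune lists other than those of neutrophils had medians below 0. Macrophage genes had 8 of 29 above 0 and a median of -0.10, with 0.07 in intact and -0.01 in crushed ganglia. Aif1, a calcium-binding protein of macrophages, was at 0.540, 0.569 and 0.645 with vehicle and 1.81, 1.34 and 0.698 with IPA in intact ganglia, without overlap but close at IPA replicate 3. In the crushed groups it stood at 1.99, 2.12 and 2.54 with vehicle and 1.98, 1.88 and 2.15 with IPA, which overlapped. Its interaction was -0.78 ± 0.26 (limma, unadjusted p = 0.0086). The macrophage median ran from -0.21 without IPA-crush replicate 3 to 0.00 without IPA replicate 2.

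Complement genes had 8 of 28 above 0 and a median of -0.08, and chemokines and their receptors 9 of 26 and -0.10, where Cxcl16 was at -0.37 ± 0.15. Without IPA-crush replicate 3 the 2 medians were -0.14 and -0.17, and without IPA replicate 2 they were -0.01 and -0.02. T, B and NK cell genes had 2 of 9 and -0.13, MHC class II genes 2 of 7 and -0.07, and MHC class I genes 6 of 24 and -0.05. Type I interferon response genes had 18 of 50 above 0 and a median of -0.05, with 0.19 in intact and 0.12 in crushed ganglia. The interferon median was 0.06 without IPA replicate 2 and -0.17 without IPA-crush replicate 3. MHC class II, MHC class I and lymphocyte medians were above 0 without IPA replicate 2, at 0.18, 0.06 and 0.05.

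The 2 neutrophil lists had the highest medians, 0.40 for 15 tested mature genes of 22 and 0.22 for 5 precursor granule genes of 11, but single libraries moved them across 0. S100a8, a calcium-binding alarmin, was at 0.74 and Ngp at 0.66 ± 0.72. Ngp was at 16.7, 8.83 and 41.2 in the IPA-crush libraries and at 10.2, 20.5 and 14.0 in the vehicle-crush libraries, so that IPA-crush replicate 3 alone lay above the rest. In mean log2 level the mature list was at 2.92 in that library and at 2.21 and 1.75 in its partners. Without it the mature median was -0.02 and without vehicle replicate 2 it was 0.60. The precursor median was -0.09 without vehicle replicate 3 and 0.63 without vehicle replicate 2.

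Other cell types of the ganglion and its surroundings had medians from -0.15 to -0.03. Endothelial genes had 10 of 22 above 0 and a median of -0.05, and pericyte and smooth muscle genes 4 of 14 and -0.07, with Vtn, the adhesion protein vitronectin, at -0.45 ± 0.20. The pericyte median was -0.16 without IPA-crush replicate 3 and 0.00 without IPA-crush replicate 1. Adipocyte genes had 2 of 16 above 0 (12.5%, beside 47.6% of all genes) and a median of -0.15, which was -0.01 without IPA-crush replicate 1. Cidec, a lipid droplet protein related to Cidea, was at -0.93 ± 0.31 and was separated in intact ganglia only, at 0.834 to 1.52 with vehicle and 1.80 to 2.26 with IPA. Bone and cartilage genes had 5 of 11 above 0 and a median of -0.03, with the cartilage collagen Col2a1 at -0.62 ± 0.23. Erythroid genes had 4 of 11 and -0.06, where Hbb-b1 has a near-identical copy and its count is uncertain.

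Skeletal muscle genes are mostly markers of tissue outside the ganglion but include Pvalb, a gene of large-diameter neurons too. They were below vehicle with IPA by a similar amount in both states, with medians of -0.55 and -0.56. The median of the members' interactions was -0.05. Their mean log2 level spread from 1.79 to 3.68 within the IPA-crush group. The median was -0.52 without IPA-crush replicate 1 and 0.45 without IPA-crush replicate 3. The fibroblast list differed in order from muscle in IPA-crush libraries, at 3.43, 3.62 and 3.61 where muscle was at 3.68, 2.76 and 1.79. The 2 orders also differed in IPA and in vehicle-crush libraries. They were the same in vehicle libraries, with fibroblast at 3.46, 3.43 and 3.70 and muscle at 2.45, 2.19 and 2.59. Adipocyte genes had the fibroblast order in IPA-crush libraries only, at 3.30, 3.91 and 3.81. The part of adjoining tissue in the fibroblast result was not tested.

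Lists of basic cell functions and of stress had medians close to that of all genes. Cytosolic ribosomal protein genes had 59 of 77 below 0 but a median of only -0.04, with 0.12 in intact and 0.07 in crushed ganglia. Of the 77, 36 were below 0 without vehicle replicate 2. With each library's trend on GC content and length removed, 43 were below 0 and the median was -0.01. Nuclear-encoded respiratory chain genes had 21 of 61 above 0 and a median of -0.03, with Atp5j2 at -0.14 ± 0.06. Cell cycle genes had 17 of 30 and 0.04, with the checkpoint kinase Bub1 at 0.29 ± 0.13. Cholesterol synthesis genes had 12 of 25 and 0.00, circadian clock genes 10 of 19 and 0.01, ER stress genes 16 of 31 and 0.01, and heat shock and DnaJ chaperone genes 14 of 32 and -0.02. NRF2 antioxidant genes had 11 of 26 and -0.01, with the cystine transporter Slc7a11 at -0.43 ± 0.18.

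The genes of the aryl hydrocarbon receptor and the pregnane X receptor, both of which bind indoles, had 8 of 17 above 0 and a median of 0.00, with -0.05 in intact and -0.04 in crushed ganglia. Cyp1b1, a target of the first receptor, was at 31.2 to 34.2 with IPA and 33.1 to 35.8 with vehicle in intact ganglia, which overlapped. In crushed ganglia the levels were 88.0 to 91.8 with IPA and 94.7 to 107 with vehicle, and its interaction was -0.02 ± 0.08. The targets Ahrr and Tiparp were at 0.02 ± 0.16 and 0.00 ± 0.11. Cyp1a1 and the pregnane X receptor gene Nr1i2 were below the filter, at no more than 0.327 and 0.130 in any library, and Abcb1a, a transporter under that receptor, was at 0.01 ± 0.12.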

How the data were processed

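RNA was sequenced from 12 libraries of pooled ganglia. The authors deposited 1 table of CPM-like values, and, per the submitters' processing notes, genome build mm10 and the aligner STAR (2.7.0) were among what was used, as were limma (3.38.3) and edgeR (3.24.3), without saying for which step. The counter is not given in the sources used here, nor whether it used strand, so that genes overlapping on opposite strands may share reads. The table is named FPKM, but in each library 100% of the values divide by the worth of a single read without remainder (tolerance 1e-06), so that whole reads were recovered; gene length was not divided out. The design assumed normalized values, and its test was kept.

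Values were taken as log2(value + 0.5), and genes with at least 0.5 in 3 or more libraries entered 1 model of 4 groups, fitted with limma 3.58.1 (trended variance, R 4.3.3), with 8 residual degrees of freedom, with a two-sided test and Benjamini-Hochberg adjustment over all 15603 genes. Replicates are separate pools of mice. The script was also run on simulated counts, drawn gene by gene without the shared library trends seen in these data. No result here rests on that run. The members and the 39 lists were chosen with earlier results of these data known, so no list is independent evidence, and lists are described by counts and medians with no test of their own. Of 1154 list entries, 1151 matched (16 through Ensembl ID); Azu1, Ackr4 and Ahsp did not. The genes named are the 8 of smallest p in each direction with a mean of at least 1, up to 3 members per list at an unadjusted p under 0.05 or otherwise the member of smallest p and the one of highest mean, fixed injury, neuron and receptor-target genes, and the 4 most extreme genes in each direction whose groups crossed without overlap; other members named were chosen after their values were seen, and lists with no member at that p are mostly given by counts and medians alone. Some genes that the rule names are not reported here. Gene positions were read from GENCODE M21 and are on mm10.

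Alternatives were pseudocounts of 0.1 and 1, no filter and a filter of 1, median-of-ratios, TMM and quantile scaling, robust empirical Bayes, array weights, the adjusted p at 0.1, a replicate block, edgeR 4.0.16 and DESeq2 1.42.0 on recovered reads, removal of each library's GC and length trend, and each library left out in turn. Gene-by-gene array weights, and the counts of list members under each alternative, were added after seeing the data.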

Additional observations from a re-analysis of the deposited data

Results flagged for a closer look

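In 8 of the named genes every IPA library lay on one side of every vehicle library in intact ganglia and on the other side after crush. Such crossing was itself a rule by which genes were named, so their number among the named genes is not a result. None of these differences passed its own test (limma, adjusted p of 0.639 for Mfap4 and at least 0.9997 for the rest). Those higher with IPA in intact and lower in crushed ganglia were Mfap4, with an interaction of -1.17 on the log2 scale, the transporter gene Slc22a8 at -0.67, Metrn, which codes for the glial differentiation factor meteorin, at -0.42, the matrix-associated Ccdc80 at -0.40, and the transcript AK163121 at -0.29. Those of the reverse order were Cidea at 0.60, the non-coding transcript C630043F03Rik at 0.43 and Gm5126 at 0.42. Over all tested genes such a crossing was met by 27 (0.173%).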

How the results depend on the processing

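With 1 library left out in turn, 0 genes passed the adjusted p in all 12 refits, higher genes at an unadjusted p under 0.05 ran from 72 to 917 and lower ones from 120 to 779, crossed genes from 15 to 162 and from 25 to 166, and the correlation of both differences from 0.0594 to 0.608. Array weights estimated by REML stopped before convergence, with a weight of 42.2 on IPA-crush replicate 2, and are given for completeness. They called 2126 genes, with 2260 higher and 2762 lower at the unadjusted p; gene-by-gene weights called 2 (Mfap4 and Adam8), with 1479 and 1777, and DESeq2 called 3. The correlation was 0.209 and 0.213 under the 2 kinds of weights. With no filter 372 genes were higher and 627 lower, and crossed genes numbered 23 (IPA lower in intact and higher in crushed ganglia) and 32 (the reverse), against 11 and 16. These were 17 and 11 with median-of-ratios scaling, 14 and 11 with TMM, and 28 and 23 after removal of the trend on GC content and length, so that the balance was reversed. That removal gave 266 higher and 266 lower genes, without the imbalance of 105 to 222. The cause was not tested.

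The replicate number as a block gave 0 calls, with 88 genes higher and 212 lower. Same-numbered libraries did not deviate together (correlations from -0.252 to 0.286), so the numbers are not treated as pairs.

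Fibroblast members lower at the unadjusted p numbered 18 and 16 under the 2 kinds of weights, and collagens 20 and 17. List medians under array weights were -0.058 for pan-neuronal, -0.152 for regeneration, 0.179 for nociceptor, -0.151 for mature neutrophil, -0.311 for neutrophil precursor, -0.208 for pericyte, 0.082 for adipocyte, -0.178 for bone, -0.077 for cell cycle, -0.066 for ER stress and 0.116 for GABA and glutamate genes. Under gene-by-gene weights they were -0.146 for regeneration, -0.131 and -0.257 for the neutrophil lists, -0.207 for pericyte, -0.139 for bone, -0.063 for ER stress and 0.124 for GABA and glutamate genes. With the trend on GC content and length taken out, the neurotrophin median was 0.042. With 1 library left out in turn, medians ran from -0.062 to 0.009 for pan-neuronal, 0.051 to 0.175 for nociceptor, -0.016 to 0.030 for synaptic vesicle, 0.012 to 0.117 for GABA and glutamate, -0.080 to 0.045 for satellite glia, -0.227 to 0.177 for MHC class II, -0.321 to -0.050 for collagen, -0.099 to 0.036 for bone, -0.064 to 0.003 for ribosomal, -0.048 to 0.033 for receptor-axis, -0.054 to 0.045 for ER stress, -0.040 to 0.036 for heat shock, -0.059 to -0.002 for axon guidance and -0.028 to 0.049 for neurotrophin genes. Members lower at the unadjusted p numbered 5 to 15 for fibroblast and 4 to 17 for collagen genes, and ribosomal genes below 0 numbered 36 to 64.

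Named genes that changed sign were mostly near 0. Under array and gene-by-gene weights in turn, Ngp was at -0.30 and -0.23, Gal at -0.090 and -0.072, Cyp1b1 at 0.056 and 0.040, and Tiparp at 0.017 and 0.018. Tiparp was also at 0.012 with median-of-ratios scaling, 0.0024 with quantile scaling, 0.0040 with TMM, 0.0026 with edgeR and 0.011 with DESeq2. Ahrr was at -0.042 under array weights and -0.0035 after trend removal, which put Abcb1a at -0.013. Over left-out libraries Syt11 ran from -0.072 to 0.0058, Gal from -0.044 to 0.13, Cyp1b1 from -0.059 to 0.033, Ahrr from -0.061 to 0.099, Tiparp from -0.061 to 0.079 and Abcb1a from -0.070 to 0.087. The cause was not tested.

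With 3 libraries per group, the 95% interval of the interaction lay within 1.2-fold for only 30.9% of genes, which limits what could be seen.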
